A study of Mus musculus with 8 samples.

Results

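The genes described here are 9 transcripts kept high in naive and memory T cells, chosen by name: Klf2, Tcf7, Lef1, Ccr7, Il7r, Satb1, S1pr1, Txnip and Pik3ip1. The choice was made with earlier results of these data known. All 9 are among the 16649 genes of the deposited matrix, and all 9 passed the filter on low counts that left 13412 genes for testing. They were followed in splenic CD4+ T cells from female mice aged 10 weeks, either lacking the acid-sensing receptor Gpr65 (KO) or wild type (WT), and polarized in culture until day 3. KO and WT cultures alike were given 20 ng/ml of IL-1b and 20 ng/ml of IL-23. Th22 cultures also had 40 ng/ml of IL-6 and 400 nM FICZ, an agonist of the aryl hydrocarbon receptor, while Th17 cultures had 25 ng/ml of IL-6 and no FICZ, so a difference between Th22 and Th17 may come from either agent. Each of the 4 groups had 2 single-cell libraries made with a 10x Genomics 3' kit, and nothing in the labels says that they came from separate animals, so p-values measure the spread between libraries, which may be technical. How the KO allele was made, and in which cells it is deleted, was not given in the sources used here.

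A naive or resting memory T cell is held in a quiescent, recirculating state by a small set of transcription factors and surface receptors. FOXO1 and KLF2 switch on the homing receptors that carry such cells through blood and lymph nodes, TCF-1 and LEF-1 keep open the chromatin of early T cell genes, and IL-7 signaling sustains survival without division. Antigen receptor and PI3K-AKT signaling push FOXO1 out of the nucleus and lower many of these genes as the cell grows, divides and takes on an effector fate.

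The libraries held between 9969 and 15119 kept cells, with medians between 2354 and 4142 UMIs (unique molecular identifiers, 1 per captured mRNA) per cell. Among kept cells, 1199 of 100483 distinct barcodes occurred in 2 or more libraries, at most 67 for any pair. Gpr65 was at 1.58 and 1.55 CPM (UMI counts relative to the library's total after TMM scaling) in KO Th17 libraries, against 72.9 and 72.0 CPM in WT Th17 libraries. It was at 0.887 and 0.964 CPM in KO Th22 libraries, against 56.7 and 50.6 CPM in WT Th22 libraries. Every library thus followed the genotype in its label, and Gpr65 does not check the polarization or the replicate number. The 11 T cell identity genes summed to 4103 and 4269 CPM in KO Th17 libraries, against 4931 and 5108 CPM in WT Th17 libraries, and to 5250 and 5407 CPM in KO Th22 libraries, against 5685 and 5812 CPM in WT Th22 libraries. This sum was thus lower in KO in both polarizations, as were most of the 9 genes, and its part in their values was not tested. Of 7 B cell markers, 4 stayed under 1 CPM on average, Cd79a, Ms4a1 and Pax5 among them. Ighm was at 25.5 to 35.4 CPM in KO libraries and 34.95 to 45.8 CPM in WT libraries. Ebf1 was at 10.2 to 25.1 CPM in KO libraries and 15.3 to 22.1 CPM in WT libraries. Cd79b was at 1.02 to 1.40 CPM in KO libraries and 0.740 to 1.42 CPM in WT libraries. Of 6 erythroid and platelet markers the 1 in the matrix, Hbb-bs, was at 0 in 7 of 8 libraries and at 0.752 CPM in the other.

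Promoter windows from RefSeq (build GRCm38.p6, 250 bases before to 50 after an annotated start) were matched by symbol for Klf2, Tcf7, Lef1, Il7r, Satb1, Txnip and Pik3ip1, in 15 windows. Both strands were searched for a FOXO site (GTAAACA), a TCF/LEF site (CTTTGNT), a MEF2 site (CTA and TAG with 4 bases of any kind between them) and a carbohydrate response element (CACGNG repeated after 5 bases of any kind), motifs chosen with these sequences in view. The 3 windows that hold a FOXO, MEF2 or carbohydrate response match are shown, with the matches in capitals, because these are the factors best known for acting on quiescence and nutrient-sensing genes.
Klf2: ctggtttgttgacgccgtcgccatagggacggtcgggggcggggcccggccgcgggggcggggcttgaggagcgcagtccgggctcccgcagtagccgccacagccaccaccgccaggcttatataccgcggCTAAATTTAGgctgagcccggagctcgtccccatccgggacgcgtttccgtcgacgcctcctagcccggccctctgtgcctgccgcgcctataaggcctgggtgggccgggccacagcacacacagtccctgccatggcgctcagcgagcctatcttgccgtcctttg
Tcf7: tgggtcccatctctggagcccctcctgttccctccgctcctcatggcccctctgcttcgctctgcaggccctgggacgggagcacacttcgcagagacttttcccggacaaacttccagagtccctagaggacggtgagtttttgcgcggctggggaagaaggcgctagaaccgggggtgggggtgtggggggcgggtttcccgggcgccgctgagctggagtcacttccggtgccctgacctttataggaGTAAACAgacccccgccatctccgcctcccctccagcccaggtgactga
Txnip: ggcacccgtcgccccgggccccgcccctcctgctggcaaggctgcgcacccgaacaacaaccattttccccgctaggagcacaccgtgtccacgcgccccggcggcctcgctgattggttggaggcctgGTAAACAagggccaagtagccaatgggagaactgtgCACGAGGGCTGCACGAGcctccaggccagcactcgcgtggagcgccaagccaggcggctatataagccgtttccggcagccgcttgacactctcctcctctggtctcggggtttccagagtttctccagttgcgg
The Klf2 window (chr8:72318812-72319111, plus strand) holds a MEF2 match, a palindrome read alike on both strands. The MEF2 letters occur in 3.69% of the 32851 windows in the table. The Tcf7 window (chr11:52282546-52282845, minus strand, the second start listed) and the Txnip window (chr3:96557707-96558006, plus strand) each hold the FOXO letters, found in 3.65% of windows. Txnip also holds the carbohydrate response element, which occurs in 16 of 32851 windows (0.0487%). The TCF/LEF letters, found in 18.6% of windows, occur in 2 overlapping Satb1 windows. A match is a description of these letters and not a binding site, and no searched motif was present in the windows of Lef1, Il7r or Pik3ip1.

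Among the 4 transcription regulators, Klf2 differed most between KO and WT. KLF2 is a zinc-finger factor that drives S1pr1 and restrains proliferation. The gene (ENSMUSG00000055148, mm10, chr8:72319033-72321656, plus strand, protein coding) was at 21.8 and 27.6 CPM in KO Th17 libraries, against 61.7 and 51.7 CPM in WT Th17 libraries. In Th22 it was at 48.6 and 47.1 CPM in KO libraries, against 64.9 and 61.6 CPM in WT libraries. All KO libraries lay below all WT libraries in both polarizations, with a wide gap in Th17 and a narrow one in Th22. The log2 fold change was -1.20 ± 0.14 (SE) in Th17, which passed edgeR's quasi-likelihood test with Benjamini-Hochberg adjustment (adjusted p = 0.0371). The Th22 value, -0.40 ± 0.14, did not pass (edgeR adjusted p = 0.335). The Klf2 value in Th17 stayed between -1.45 and -1.04 over 22 alternatives and kept its sign in all of them, but its edgeR or DESeq2 adjusted p ranged from 2.33e-09 to 0.319 and it was called in 14 of them. It was not called in 8, among them those without KO Th17 replicate 1 (edgeR adjusted p = 0.153), without WT Th17 replicate 1 or 2 (0.319 and 0.208), or without WT Th22 replicate 1 or 2 (0.141 and 0.139), and those with only the libraries of the groups compared (0.0862) or the median UMI number as a covariate (0.121). The interaction, Th22 minus Th17, was 0.80 ± 0.20 on the log2 scale with an unadjusted p of 0.0042 in edgeR and an adjusted p of 0.8998, at a background of 0% of genes called, so a different KO effect in the 2 polarizations was not shown.

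Tcf7 encodes TCF-1, a factor of naive and stem-like memory cells, and lies at chr11:52252371-52283014 (minus strand). It was at 93.0 and 89.1 CPM in KO Th17 libraries, against 144.2 and 156.3 CPM in WT Th17 libraries. Tcf7 in Th22 was at 132.0 and 110.9 CPM in KO libraries, against 150.4 and 168.7 CPM in WT libraries. The KO libraries were below the WT libraries in both polarizations. The log2 fold changes, -0.72 ± 0.12 in Th17 and -0.39 ± 0.12 in Th22, missed the threshold (edgeR adjusted p = 0.0858 and 0.273). A gene of the matrix, A630014C17Rik, overlaps Tcf7 on the other strand, and the strand used in counting was not given in the sources used here.

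Lef1 encodes LEF-1, the partner of TCF-1 in early and naive T cells (chr3:131110471-131224356, plus strand). It was at 122.9 and 125.3 CPM in KO Th17 libraries, against 167.5 and 181.0 CPM in WT Th17 libraries, and at 150.7 and 138.9 CPM in KO Th22 libraries, against 165.5 and 178.9 CPM in WT Th22 libraries. Again no KO library reached a WT library of its polarization. For Lef1 the log2 fold changes were -0.49 ± 0.09 in Th17 (edgeR adjusted p = 0.114) and -0.25 ± 0.09 in Th22 (edgeR adjusted p = 0.354).

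Satb1, a chromatin organizer needed for naive T cell gene programs (chr17:51736187-51833290, minus strand), had the same pattern. It was at 323.2 and 322.3 CPM in KO Th17 libraries, against 462.8 and 502.0 CPM in WT Th17 libraries, and at 383.6 and 341.0 CPM in KO Th22 libraries, against 416.2 and 443.5 CPM in WT Th22 libraries. The 2 KO Th17 libraries were nearly equal, and the groups did not overlap in either polarization. Satb1 had log2 fold changes of -0.58 ± 0.09 in Th17 (edgeR adjusted p = 0.0858) and -0.25 ± 0.09 in Th22 (edgeR adjusted p = 0.359), the last being -0.16 without KO Th22 replicate 2.

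The 3 receptors behaved differently from one another. Il7r encodes the alpha chain of the IL-7 receptor, the survival receptor of resting T cells (chr15:9505788-9530176, minus strand). It was at 63.2 and 34.8 CPM in KO Th17 libraries, against 92.7 and 130.2 CPM in WT Th17 libraries. In Th22 it was at 90.8 and 50.5 CPM in KO libraries, against 103.9 and 137.1 CPM in WT libraries. Every KO library was below every WT library, yet within each genotype the libraries spread widely: KO replicate 1 was 1.82 and 1.80 times KO replicate 2 in Th17 and Th22, and WT replicate 1 was 0.712 and 0.758 times WT replicate 2. The log2 fold changes, -1.19 ± 0.36 in Th17 and -0.77 ± 0.36 in Th22, missed the threshold (edgeR adjusted p = 0.260 and 0.456). The Th22 value was -1.25 without KO Th22 replicate 1 and -0.40 without KO Th22 replicate 2.

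Within each group, the library with more Il7r also had more RNA of NK and gamma-delta markers. The 7 markers of that list present in the matrix summed to 38.2 and 16.8 CPM in KO Th17, 25.2 and 35.1 CPM in WT Th17, 49.97 and 26.3 CPM in KO Th22, and 23.5 and 42.9 CPM in WT Th22 libraries. Between genotypes the order was mixed. KO replicate 1 had more of these markers than WT replicate 1 in each polarization, and less Il7r. KO replicate 2 had less of both than WT replicate 2 in each polarization. The numbers are not said to pair libraries, and the part of these markers in the Il7r values was not tested. They concentrated in cluster 7, where they summed to 921 ± 167 CPM (SD, n = 8 libraries), against 7.81 to 22.4 CPM in the other clusters. Without the cells of clusters 7, 9 and 11, the Il7r log2 fold change was as large, at -1.29 in Th17 and -0.83 in Th22.

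S1pr1 encodes the sphingosine-1-phosphate receptor that lets T cells leave lymphoid tissue (chr3:115710433-115715072, minus strand). It was at 23.2 and 18.8 CPM in KO Th17 libraries, against 28.7 and 27.2 CPM in WT Th17 libraries, and at 29.0 and 20.0 CPM in KO Th22 libraries, against 36.8 and 39.1 CPM in WT Th22 libraries. KO libraries were lower in both polarizations without overlap, with a wider gap in Th22. The log2 fold changes were -0.41 ± 0.18 in Th17 (edgeR adjusted p = 0.432) and -0.63 ± 0.18 in Th22 (edgeR adjusted p = 0.272). Without KO Th17 replicate 2 the Th17 value was -0.27, and without KO Th22 replicate 2 the Th22 value was -0.38.

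Ccr7, the chemokine receptor that brings naive and central memory cells into lymph nodes (chr11:99144196-99155077, minus strand), did not follow the others. It was at 195.1 and 165.3 CPM in KO Th17 libraries, against 186.6 and 198.7 CPM in WT Th17 libraries, which overlapped. In Th22 it was at 165.6 and 157.2 CPM in KO libraries, against 151.0 and 143.3 CPM in WT libraries, so both KO libraries were the higher ones. The log2 fold changes were small and not called, at -0.10 ± 0.10 in Th17 (edgeR adjusted p = 0.767) and 0.13 ± 0.10 in Th22 (edgeR adjusted p = 0.671).

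Txnip and Pik3ip1 act on metabolism and growth signaling. TXNIP limits glucose uptake and binds thioredoxin, and its gene (chr3:96557957-96561883, plus strand) was at 31.0 and 28.3 CPM in KO Th17 libraries, against 39.7 and 38.5 CPM in WT Th17 libraries. In Th22 it was at 50.4 and 39.6 CPM in KO libraries, against 46.9 and 54.0 CPM in WT libraries. The groups were apart in Th17 and overlapped in Th22. The log2 fold changes were -0.40 ± 0.14 in Th17 (edgeR adjusted p = 0.322) and -0.17 ± 0.14 in Th22 (edgeR adjusted p = 0.689). Gm15441 overlaps Txnip on the other strand and is in the matrix.

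PIK3IP1 is a membrane inhibitor of PI3K (gene at chr11:3330401-3342971, plus strand, overlapped on the other strand by Gm12592, also in the matrix). Pik3ip1 was at 125.7 and 68.7 CPM in KO Th17 libraries, against 123.4 and 146.8 CPM in WT Th17 libraries. In Th22 it was at 148.8 and 82.7 CPM in KO libraries, against 109.4 and 129.8 CPM in WT libraries. KO and WT overlapped in both polarizations, and, as for Il7r, KO replicate 1 was 1.83 and 1.80 times KO replicate 2. Its log2 fold changes were -0.47 ± 0.33 in Th17 (edgeR adjusted p = 0.614) and -0.05 ± 0.33 in Th22 (edgeR adjusted p = 0.970). The Th17 value was -0.98 without KO Th17 replicate 1 and -0.10 without KO Th17 replicate 2, and the Th22 value -0.53 without KO Th22 replicate 1 and 0.32 without KO Th22 replicate 2.

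**Figure D1:**
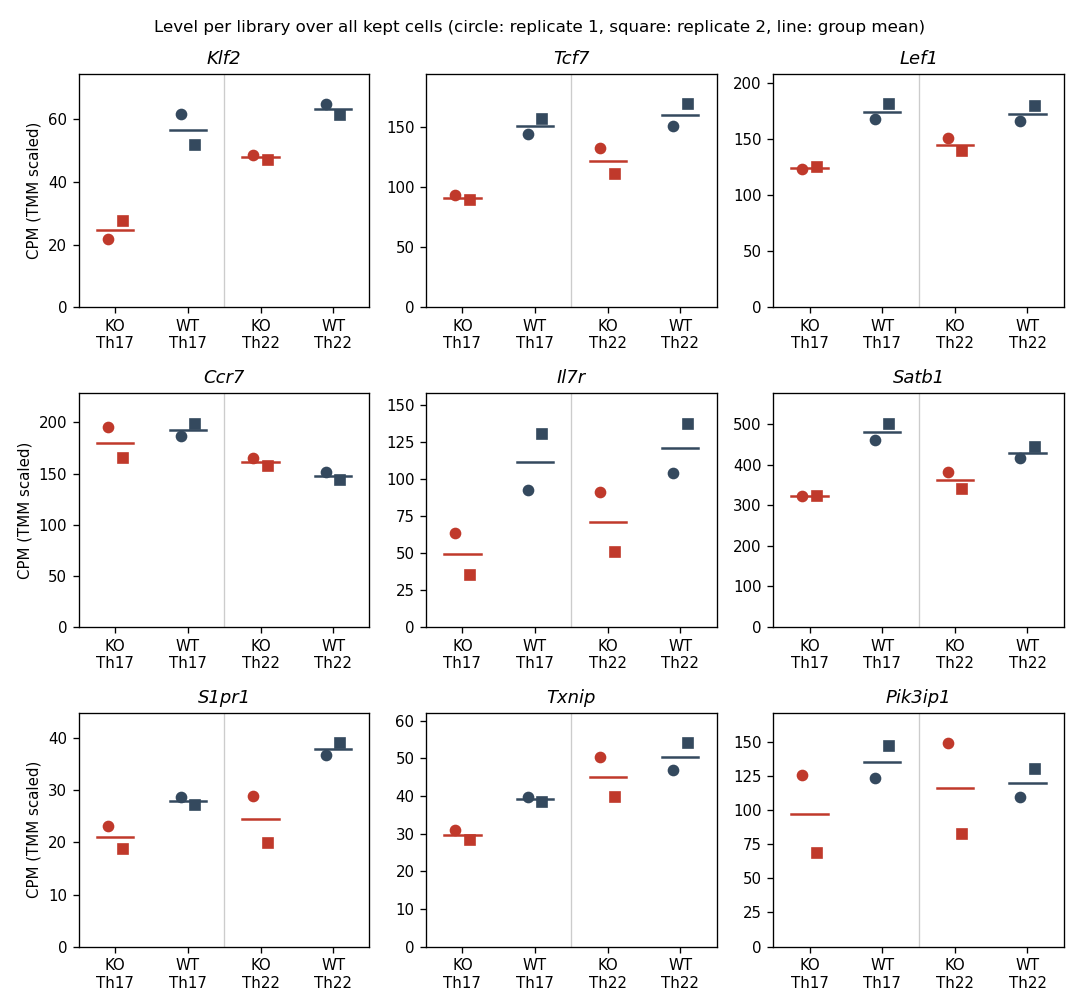
Level of each of the 9 genes in each library, as TMM-scaled CPM over all kept cells (y axis, starting at 0), for KO (red) and WT (dark) in Th17 and Th22. Lines are means of 2 libraries. Klf2, Tcf7, Lef1, Il7r, Satb1 and S1pr1 are lower in both KO libraries than in both WT libraries of each polarization.

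Across the 9 genes, 1 was called lower in KO Th17 cells, Klf2, where 0.134% of the 13412 genes tested were called lower. All 9 had a log2 fold change below 0 in Th17, with a median of -0.49, while 50.4% of all genes were below 0 and their median was -0.0023. Since the 9 were chosen with earlier results of these data known, setting them beside all genes is a description and not a test. In Th22, 0 were called in edgeR, where 0.0895% of all genes were called lower. There 8 of 9 were below 0, with a median of -0.25 against 0.0048 over all genes, and 5 had an unadjusted p under 0.05, as had 11.7% of all genes. In Th17 that number was 6, beside 12.2% of all genes. With DESeq2 the Th17 count was 5 (Klf2, Tcf7, Lef1, Il7r and Satb1) and the Th22 count stayed at 0. The edgeR shares do not apply to the DESeq2 counts, and the DESeq2 share of all genes is not given here. Over the alternatives, all genes called in Th17 in either direction reached 665, against 25 in edgeR above. Complete separation, with both KO libraries below both WT libraries, held for 7 genes in Th17 (all but Ccr7 and Pik3ip1), where it held for 21.7% of all genes. In Th22 it held for 6 (Klf2, Tcf7, Lef1, Il7r, Satb1 and S1pr1), where it held for 21.8% of all genes, and Ccr7 was the reverse case, with both KO libraries above both WT libraries, as for 20.4% of all genes.

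With both polarizations in 1 model, 4 of the 9 genes fell in KO, where 1.52% of all genes were called lower. The 4 were the transcription regulators. Klf2 averaged 36.3 ± 13.6 CPM in KO and 59.96 ± 5.72 CPM in WT (SD over 4 libraries each), with a log2 fold change of -0.80 ± 0.16 (edgeR adjusted p = 0.0405). Tcf7 averaged 106.2 ± 19.6 CPM in KO and 154.9 ± 10.4 CPM in WT, with a log2 fold change of -0.56 ± 0.10 (edgeR adjusted p = 0.0203). Lef1 averaged 134.5 ± 12.9 CPM in KO and 173.2 ± 7.84 CPM in WT, with a log2 fold change of -0.37 ± 0.08 (edgeR adjusted p = 0.0394). Satb1 averaged 342.5 ± 28.7 CPM in KO and 456.1 ± 36.1 CPM in WT, with a log2 fold change of -0.41 ± 0.09 (edgeR adjusted p = 0.0421). The adjusted p-values of Klf2, Lef1 and Satb1 lie just under 0.05, and leaving out 1 library moved the count of the 9 genes called. It was 0 without KO Th17 replicate 1, KO Th22 replicate 2, WT Th17 replicate 1 or 2, or WT Th22 replicate 2. It was 1 without KO Th17 replicate 2 or WT Th22 replicate 1, and 7 without KO Th22 replicate 1. Same-numbered libraries of 1 genotype deviated together over genes, with r = 0.88 between KO Th17 and KO Th22 and r = 0.64 between WT Th17 and WT Th22. The 4 libraries of a genotype may therefore not be independent, and with same-numbered ones summed, 0 of the 9 genes were called. Outside the threshold, Il7r had a log2 fold change of -0.98 ± 0.24 (edgeR adjusted p = 0.0701) and S1pr1 one of -0.52 ± 0.13 (edgeR adjusted p = 0.0643). Over the 4 KO and 4 WT libraries, Klf2, Tcf7, Lef1, Il7r and Satb1 were lower in every KO library, a separation held in that direction by 5.13% of all genes. In sums over a library, fewer cells that express a gene and less RNA per cell cannot be told apart.

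Th22 and Th17 cultures were compared within each genotype, and 0 of the 9 genes were called in either (edgeR), where 0.119% of all genes were called in KO and 0.149% in WT. In KO cells Klf2, Tcf7, Lef1, Satb1 and Txnip were higher in both Th22 libraries than in both Th17 libraries, where 17.9% of all genes were. In WT cells S1pr1 and Txnip were higher in both Th22 libraries, where 23.9% of all genes were, and Ccr7 and Satb1 were lower in both, where 22.9% of all genes were. Satb1 thus had opposite orders in KO (0.17 ± 0.09, edgeR adjusted p = 0.591) and WT (-0.17 ± 0.09, edgeR adjusted p = 0.698), and Ccr7 stood at -0.16 ± 0.10 in KO (edgeR adjusted p = 0.659) and -0.39 ± 0.11 in WT (edgeR adjusted p = 0.313). Klf2 stood at a log2 difference, Th22 over Th17, of 0.96 ± 0.14 in KO (edgeR adjusted p = 0.0771) and 0.16 ± 0.14 in WT (edgeR adjusted p = 0.85). Txnip stood at 0.60 ± 0.14 in KO (edgeR adjusted p = 0.201) and 0.37 ± 0.14 in WT (edgeR adjusted p = 0.498). Tcf7 stood at 0.42 ± 0.12 in KO (edgeR adjusted p = 0.249) and 0.09 ± 0.12 in WT (edgeR adjusted p = 0.915). These comparisons share libraries with the KO and WT comparisons above, so they are not separate evidence.

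The authors sorted the cells into 12 numbered clusters without names. Cluster 0, with 39805 kept cells, was set against the other cells of the same library: of 20 quiescence and growth restraint genes 15 were higher in cluster 0, of 20 other naive and memory genes 13 were higher, and of 20 activation genes 18 were lower. Of the 4138 genes with at least 20 CPM in cluster 0, 1561 were higher there and 2577 lower. Among the 12 clusters, cluster 0 was the highest for 6 of the 20 quiescence genes, 3 of the 20 naive and memory genes and 3 of the 9 genes (Tcf7, S1pr1 and Pik3ip1). Its leading genes by fold were Vps37b, Atp6v0d2, Klf2, Cldn10 and Pik3ip1, so 2 of the 9 genes help to define it, and several of the others are not known for quiescence. It is therefore called by its number. Since the clusters come from the expression of the same cells, and whether the 9 genes entered the clustering is not known here, levels across clusters are a description without a test.

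Klf2, Pik3ip1 and S1pr1 were the most enriched in cluster 0. The ratio of CPM in cluster 0 to CPM in the other cells, averaged over 8 libraries, was 2.25 ± 0.24 (SD) for Klf2, 2.13 ± 0.26 for Pik3ip1 and 2.05 ± 0.32 for S1pr1. For Tcf7 it was 1.69 ± 0.19 and for Ccr7 1.69 ± 0.07. These 5 genes were higher in cluster 0 in all 8 libraries. Txnip (1.20 ± 0.13), Lef1 (1.17 ± 0.07) and Satb1 (1.13 ± 0.06) were only slightly higher, also in 8 of 8 libraries, and Il7r was not enriched (0.962 ± 0.170, above 1 in 3 of 8 libraries). The ratios of KO and WT libraries overlapped for Klf2 (2.17 ± 0.33 in KO, 2.33 ± 0.11 in WT, n = 4 each) and for Pik3ip1 (2.11 ± 0.25 in KO, 2.16 ± 0.30 in WT), as they did for the other genes except Satb1. For Satb1 they were apart, at 1.14 to 1.21 in KO libraries and 1.06 to 1.12 in WT libraries. The share of all genes with ratios so separated was not counted, so this is a description.

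**Figure D2:**
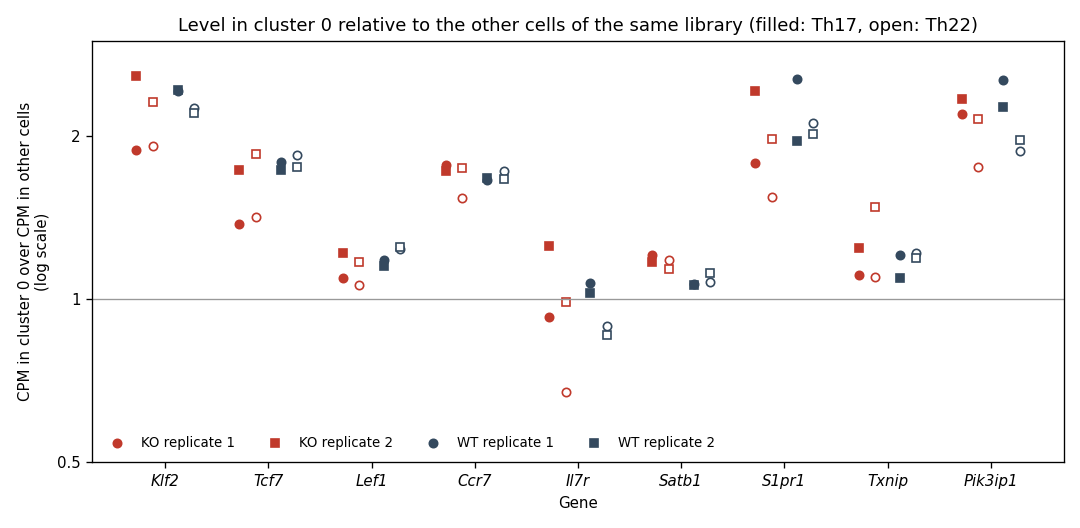
CPM in cluster 0 over CPM in the other cells of the same library (y axis, log scale) for each gene, KO in red left of WT in dark, Th17 filled and Th22 open. Klf2, S1pr1 and Pik3ip1 lie near 2 and Satb1, Lef1 and Txnip near 1, with KO and WT libraries interleaved for most genes.

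The clusters ranked the genes differently. Klf2 was highest in cluster 3 (82.2 ± 24.7 CPM, SD over 8 libraries), whose leading genes Prc1, Ccna2, Birc5 and Mki67 mark dividing cells, and next in cluster 0 (74.8 ± 25.6 CPM), a difference within the SD. Tcf7 was at 177 CPM in both clusters 0 and 3, and S1pr1 (41.5 ± 11.7 CPM) and Pik3ip1 (176.0 ± 39.4 CPM) were highest in cluster 0, with cluster 3 next and within the SD over libraries. Within libraries, cluster 0 was above cluster 3 in 8 of 8 for S1pr1 and in 7 of 8 for Pik3ip1. Ccr7 (239.1 ± 30.5 CPM) and Lef1 (187.8 ± 35.2 CPM) were highest in cluster 8, led by the interferon-response genes Isg15 and Ifit1, with cluster 0 next and within the SD. Il7r stood apart: its level in cluster 7, led by the gamma-delta T cell receptor genes Trdc and Tcrg-C4, was 227 ± 48 CPM, beyond the SD of the next, cluster 2 (121 ± 47 CPM), which is led by Il17a, Il17f and Il22. Txnip was highest in cluster 11 (149 ± 40 CPM over 6 libraries), beyond the SD of cluster 6 (63.4 ± 23.2 CPM). Satb1 varied little, with clusters 2, 0, 5 and 8 between 424 and 436 CPM. Cluster 9, a small cluster with a median of 0.112% mitochondrial UMIs, was the lowest of the 12 for Lef1, Ccr7, Satb1, S1pr1, Txnip and Pik3ip1.

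**Figure D3:**
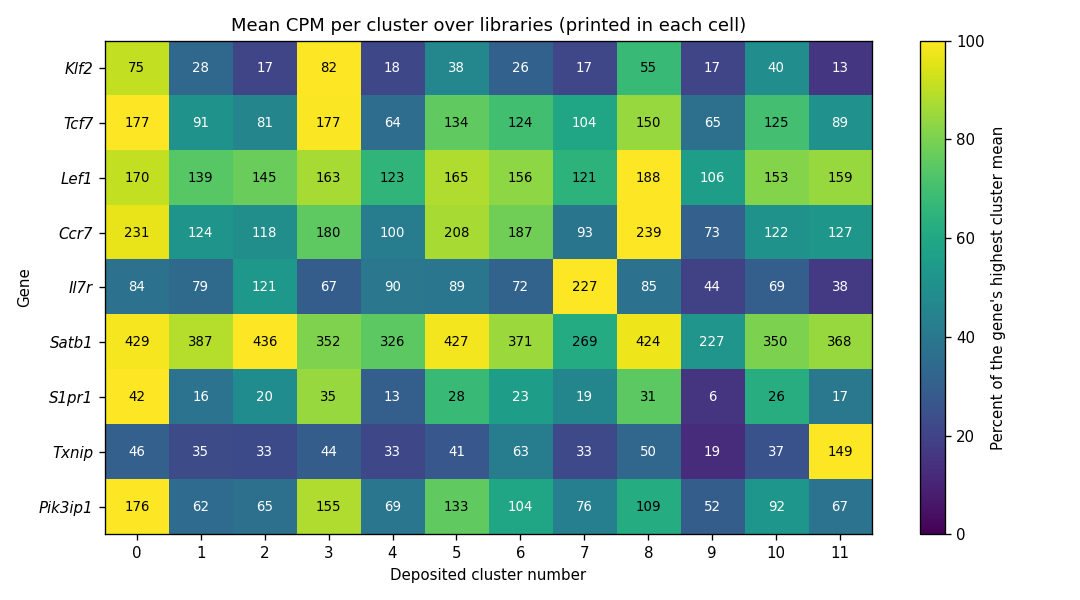
Mean CPM of each gene (rows) in each deposited cluster (columns), printed in each cell and colored as a percent of the gene's highest cluster. Means are over the libraries with at least 50 cells in the cluster. Klf2, Tcf7, S1pr1 and Pik3ip1 peak in clusters 0 and 3, Il7r in cluster 7 and Txnip in cluster 11.

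The lower KO levels were present both inside and outside cluster 0. In cluster 0, Klf2 was at 32.4 and 52.0 CPM in KO Th17 libraries, against 104.3 and 79.2 CPM in WT Th17 libraries, and at 63.6 and 68.2 CPM in KO Th22 libraries, against 102.7 and 95.8 CPM in WT Th22 libraries. KO and WT did not overlap there in either polarization. The share of all genes so separated was not counted in cluster 0. Over all cells it was 21.7% in Th17 and 21.8% in Th22. Its log2 fold change in cluster 0 was -1.16 ± 0.22 in Th17 (edgeR adjusted p = 0.175) and -0.47 ± 0.22 in Th22 (edgeR adjusted p = 0.590). Tcf7 in cluster 0 was at 118.1 and 134.3 CPM in KO Th17 libraries, against 211.0 and 207.8 CPM in WT Th17 libraries, with a log2 fold change of -0.77 ± 0.11 (edgeR adjusted p = 0.0686). In Th22, Tcf7 in cluster 0 was at 152.1 and 144.0 CPM in KO libraries, against 215.8 and 236.2 CPM in WT libraries, with a log2 fold change of -0.49 ± 0.10 (edgeR adjusted p = 0.276). KO and WT were again apart. Il7r in cluster 0 was at 63.7 and 42.5 CPM in KO Th17 libraries, against 100.7 and 131.4 CPM in WT Th17 libraries, and at 69.5 and 45.0 CPM in KO Th22 libraries, against 95.8 and 126.8 CPM in WT Th22 libraries. Its gap between the 2 KO libraries was smaller in cluster 0 than over all cells.

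In cluster 0, 0 of the 9 genes were called within Th17 or within Th22 (edgeR), where 0.0338% and 0.0422% of its 11835 tested genes were called. At an unadjusted p under 0.05 there were 7 of 9 in Th17 and 4 of 9 in Th22, where 9.67% and 8.8% of tested genes were. With both polarizations in 1 model, Tcf7 (log2 fold change -0.63 ± 0.09), Lef1 (-0.41 ± 0.07), Il7r (-1.01 ± 0.18) and S1pr1 (-0.60 ± 0.12) fell in cluster 0 with edgeR adjusted p-values of 0.0151, 0.0348, 0.0361 and 0.0469, where 0.6% of tested genes were called lower. Klf2 was at -0.81 ± 0.18 there (edgeR adjusted p = 0.0697). Outside cluster 0, Klf2 (-1.04 ± 0.15, edgeR adjusted p = 0.0402) and Satb1 (-0.62 ± 0.09, edgeR adjusted p = 0.0351) fell in Th17, where 0.258% of 12773 tested genes were called lower, and 0 were called in Th22, where 0.102% were. In the joint model outside cluster 0, Klf2 (-0.72 ± 0.14), Tcf7 (-0.47 ± 0.09), Lef1 (-0.34 ± 0.07) and Satb1 (-0.47 ± 0.08) fell with edgeR adjusted p-values of 0.0229, 0.0181, 0.0335 and 0.0133, where 2.01% of tested genes were called lower. The Th17 count outside cluster 0 was 0 without either KO Th17 library or any 1 of the 4 WT libraries, and 4 without either KO Th22 library.

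Whether the KO effect differed between cluster 0 and the other cells was tested on both sums of each library. It was called for 0 of the 9 genes in Th17 and in Th22 (edgeR), where 0.00783% of 12775 genes were called in each. At an unadjusted p under 0.05 there were also 0 of the 9, beside 4.74% of genes in Th17 and 2.85% in Th22. The differences of log2 fold changes, cluster 0 minus other cells, lay between -0.21 and 0.15 in Th17 and between -0.23 and 0.10 in Th22. By mean over 4 libraries each, KO cells of cluster 0 were above the WT cells outside it for Klf2 (54.1 CPM in KO cells of cluster 0, with a range of 32.4 to 68.2, and 41.2 CPM in WT cells outside it, with a range of 32.6 to 45.6, so the ranges overlapped), as they were for Tcf7, Ccr7, S1pr1 and Pik3ip1. For Lef1, Il7r and Satb1, KO cells of cluster 0 were below the WT cells outside it by mean. Txnip was nearly level, at 41.5 ± 8.29 CPM in KO cells of cluster 0 and 42.6 ± 6.56 CPM in WT cells outside it, and in Th22 the order was the reverse (48.3 CPM in KO cells of cluster 0, 47.5 CPM in WT cells outside it).

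**Figure D4:**
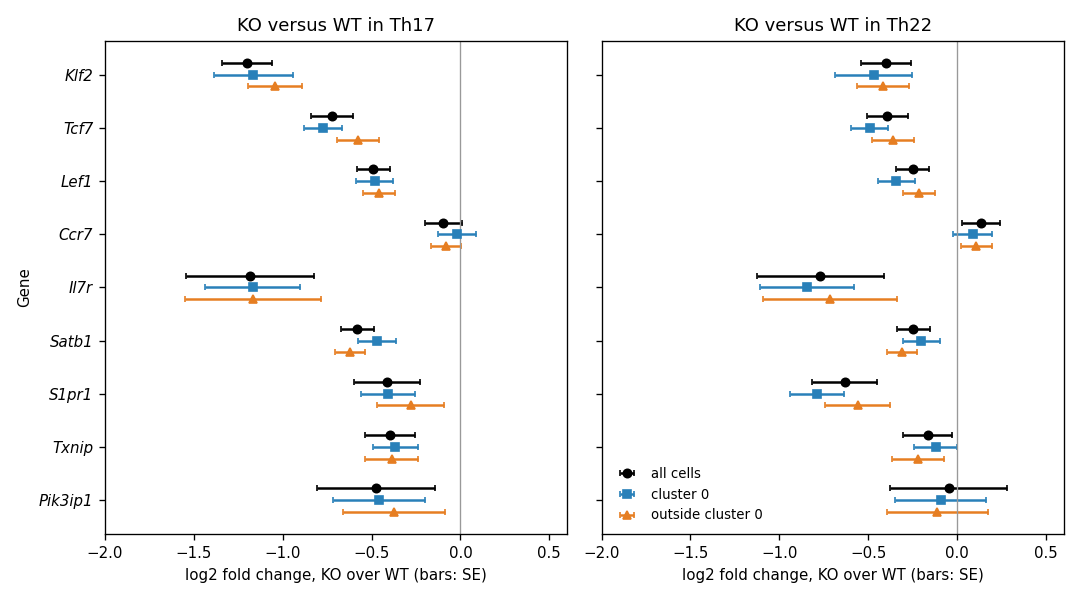
Log2 fold change, KO over WT, with its SE (x axis) for each gene in all cells (black), in cluster 0 (blue) and outside it (orange), in Th17 (left) and Th22 (right). For each gene the 3 estimates overlap within their SEs or nearly so, Klf2 and Il7r lie farthest to the left in Th17, and Ccr7 lies at 0 or above it in Th22.

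The same comparison was made in each of the 10 clusters with at least 50 cells in every library. Of the 87 gene and cluster pairs tested, 77 were below 0 in Th17 and 74 in Th22. The share of all genes below 0 was not counted within clusters. Over all cells it was 50.4% in Th17 and 49.3% in Th22. The clusters are parts of the same 8 libraries, so the pairs are not independent of one another. In Th17, 7 pairs were called lower by edgeR: Klf2 in clusters 1, 2 and 3, Tcf7 and Lef1 in cluster 1, and Satb1 in clusters 1 and 2. Cluster 1, with 29365 cells and led by Rgs16, Ccl4 and Nr4a1, had 1.31% of its tested genes called lower. In clusters 2 and 3 the shares were 0.466% and 0.0818%. In Th22, 1 pair was called, S1pr1 in cluster 1, which was lower in KO, as were 0.676% of tested genes. Tcf7, Lef1, Il7r and Satb1 were below 0 in all 10 clusters in Th17. Tcf7, Il7r and Satb1 were so in Th22 as well. Cluster 7 was the exception for Il7r: its log2 fold change there was -0.12 in Th17 and -0.10 in Th22, the nearest to 0 of the 10 clusters, against a median over clusters of -1.18 and -0.78.

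**Figure D5:**
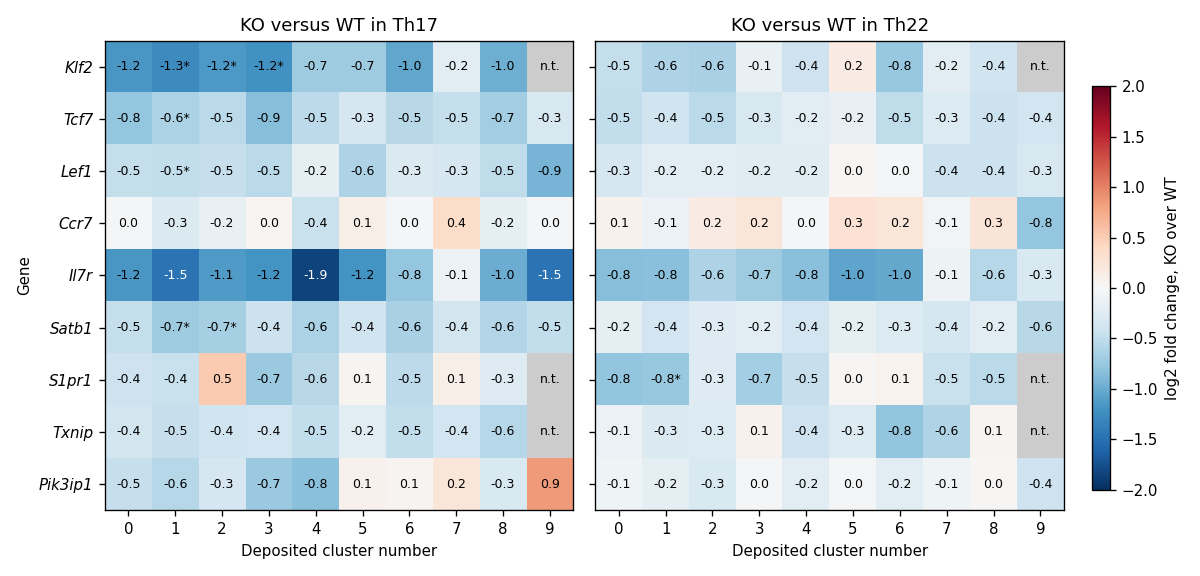
Log2 fold change, KO over WT, of each gene (rows) within each of 10 deposited clusters (columns) in Th17 and Th22. Asterisks mark an edgeR adjusted p under 0.05 and n.t. marks a gene that did not pass the filter on low counts in that cluster. Most cells are blue, below 0, with the deepest values for Klf2 and Il7r in Th17.

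Per cell, each transcript was sparse. After every cell was thinned to 1500 UMIs, which left out 3838 KO Th17, 1761 WT Th17, 847 KO Th22 and 2196 WT Th22 cells as too shallow, Klf2 was detected in 3.14% and 3.98% of cells in KO Th17 libraries, against 9.24% and 8.37% in WT Th17 libraries. In KO Th22 libraries it was detected in 7.52% and 6.81% of cells, against 9.46% and 10.1% in WT Th22 libraries. Without thinning, the Klf2 shares were 5.78% and 6.74% in KO Th17, 14.8% and 16.5% in WT Th17, 15.9% and 13.3% in KO Th22, and 15.8% and 19.5% in WT Th22 libraries. No cluster is known to lack Klf2, and the lowest thinned share over clusters was 2.04%, in cluster 11. Exact binomial 95% intervals on these shares were at most 0.999 percentage points to either side and cover counting error only.

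Thinned shares were lower in every KO library of a polarization for Klf2, Tcf7, Lef1, Il7r, Satb1 and S1pr1, a separation in both polarizations held by 8.69% of all genes tested, and each had a p of 0.0556 in a two-sided exact permutation test of KO and WT labels exchanged inside each polarization. That is the smallest p the design allows, so no gene could pass 0.05. Satb1 was detected in 39.5% of KO cells and 49.3% of WT cells on average. Counting how many of the 9 genes a thinned cell showed, cells of cluster 0 had a mean between 1.49 and 1.71 in KO libraries and between 1.90 and 2.12 in WT libraries. The other cells had a mean between 1.04 and 1.34 in KO libraries and between 1.41 and 1.56 in WT libraries.

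Other genes of the same biology were read from fixed lists. Of 19 tested naive and memory genes outside the 9, 0 were called in Th17 or in Th22 (edgeR), with median log2 fold changes of -0.20 and 0.02. The 20 genes of that list summed to 1092 to 1712 CPM in KO libraries and 1482 to 1766 CPM in WT libraries, which overlapped. With both polarizations in 1 model 3 of the 19 fell, where 1.52% of all genes were called lower. Among them were Il6ra, a chain of the IL-6 receptor, at 22.04 ± 3.60 CPM in KO and 30.1 ± 3.40 CPM in WT (log2 fold change -0.45 ± 0.10, edgeR adjusted p = 0.0490), and Rflnb, at 11.5 ± 2.52 CPM in KO and 16.6 ± 2.28 CPM in WT (log2 fold change -0.54 ± 0.09, edgeR adjusted p = 0.0169; SD over 4 libraries each). Of 20 quiescence and growth restraint genes, 0 were called in either polarization, with medians of -0.19 and -0.14. Their sum was 1454 to 1693 CPM in KO libraries and 1780 to 1905 CPM in WT libraries, so it was lower in KO. In the joint model 1 was called, Arrdc4, a paralog of Txnip, which rose, where 1.41% of all genes were called higher. It was rare, at 1.75 ± 0.84 CPM in KO and 0.518 ± 0.268 CPM in WT, with a log2 fold change of 1.75 ± 0.32 (edgeR adjusted p = 0.0265).

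Among the partners of Il7r, of TCF-1 and of PIK3IP1, 1 gene was called. Of 10 genes of the IL-7 receptor pathway and 10 tested partners of TCF and LEF factors, 0 were called in Th17, in Th22 or in the joint model (edgeR), with the smallest edgeR adjusted p at 0.137 for the pathway and 0.0683 for the partners in the joint model. Of 11 PI3K pathway genes, 1 fell in the joint model, where 1.52% of all genes were called lower. It was Pik3cd, the catalytic subunit p110-delta, with 38.2 ± 6.57 CPM in KO and 52.4 ± 10.8 CPM in WT (log2 fold change -0.46 ± 0.08, edgeR adjusted p = 0.0282). In that model 8 of the 10 pathway genes, 9 of the 10 partners and 8 of the 11 PI3K genes were below 0, with median log2 fold changes of -0.15, -0.13 and -0.17, where 50.02% of all genes were below 0. The IL-7 pathway genes summed to 1123 to 1225 CPM in KO libraries and 1290 to 1328 CPM in WT libraries. The PI3K genes summed to 217 and 239 CPM in KO Th17, against 251 and 252 CPM in WT Th17 libraries. In Th22 they summed to 231 and 258 CPM in KO libraries, against 265 and 269 CPM in WT libraries. The IL-7 pathway and PI3K sums were thus lower in KO within each polarization. The partners of TCF and LEF factors summed to 592 to 694 CPM in KO libraries and 621 to 687 CPM in WT libraries, which overlapped. Among 20 activation genes, Icos fell (-0.47 ± 0.10, edgeR adjusted p = 0.0411) and Pdcd1 rose (0.54 ± 0.10, edgeR adjusted p = 0.0325) in the joint model, and the list's medians were 0.03 in both Th17 and Th22. The regulatory T cell markers Ikzf4 and Lrrc32 fell too (-0.56 ± 0.10 and -0.91 ± 0.16, edgeR adjusted p = 0.0207 and 0.0214), as did Cd4 (-0.36 ± 0.08, edgeR adjusted p = 0.0441) and the B cell marker Ighm (-0.47 ± 0.08, edgeR adjusted p = 0.0241), at a background of 2.93% of genes called in either direction. The 4 regulatory T cell markers summed to 13.3 to 16.2 CPM in KO libraries and 21.1 to 23.8 CPM in WT libraries, and the 7 B cell markers to 42.3 to 55.2 CPM in KO libraries and 58.2 to 63.5 CPM in WT libraries. Both sums were thus lower in every KO library. The other tested markers of these lists were not called in the joint model. Ikzf2 stood at -0.03 ± 0.16, Ebf1 at -0.15 ± 0.18, Cd79a at -0.62 ± 0.30 and Cd79b at 0.13 ± 0.20 (edgeR adjusted p = 0.947, 0.705, 0.295 and 0.776). The part of both sums in the values of the 9 genes was not tested.

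Over the 92 library and cluster sums with at least 50 cells, all 36 pairs among the 9 genes were positively correlated on the log2(CPM + 1) scale, with Pearson's r between 0.07 (Ccr7 and Il7r) and 0.77 (Lef1 and Satb1) and a median of 0.53. The sums of 1 library share its depth and batch, so r is given as a description. The share of positive pairs among all genes was not counted. Among 4403 genes with at least 20 CPM, the closest to Klf2 was Tcf7 (r = 0.75), to Tcf7 Fyb (0.86), to Lef1 Fyb (0.78), and to Ccr7 Foxp1 (0.85). The closest to Il7r was Nedd4 (0.80), to Satb1 Tecpr1 (0.81), to S1pr1 Phip (0.83), to Txnip Smad7 (0.81), and to Pik3ip1 Resf1 (0.88).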

How the data were processed

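Per the labels, single-cell RNA libraries were made from polarized splenic CD4+ T cells with a 10x Genomics 3' kit (v3). The authors deposited 1 matrix of unnormalized UMI counts per gene and cell, a cell table with the percent of mitochondrial UMIs, and cluster numbers; the deposited cell cycle scores were not used. The submitters' processing notes list Cell Ranger 5.0.1, Seurat and the mm10 build; the clustering method was not given in the sources used here.

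Kept cells had 500 or more genes and no more than 10% mitochondrial UMIs (101688 of 104660). Doublets were not removed, and the 8% of cells with most UMIs were left out as an alternative. Counts of kept cells were summed per library (33826527 to 58895019 UMIs) and tested with edgeR 4.0.16 in R 4.3.3: TMM factors, filterByExpr, robust quasi-likelihood F test on all 8 libraries with 1 mean per group (an additive model for both polarizations), Benjamini-Hochberg adjustment over all genes tested, threshold 0.05. SEs are those implied by F. CPM within clusters are relative to each sum's total, without TMM. The test across cluster 0 and other cells keeps the library as a block. Both fits were tested on simulated data with 200 changed genes. Genes named outside the 9 are, per list, those with the smallest adjusted p, and, as closest in pattern, those of highest Pearson correlation; genes that lead a cluster or passed the joint model were named after their values were seen. The 9 genes, lists and motifs were chosen with earlier results of these data known. Positions come from GENCODE M21 by symbol. Some genes of the lists are not reported here.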

Additional observations from a re-analysis of the deposited data

How the results depend on the processing

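With 2 libraries per group, counts of calls rested on few libraries and on adjusted p-values near 0.05. In Th17, where 1 of the 9 genes was called, the count was 0 with the replicate block (Klf2 edgeR adjusted p = 0.0881), with only the libraries of the groups compared and with each library's median UMI number as a covariate, 2 with no filter on low counts and 5 with DESeq2. Leaving out 1 library gave 0 to 3. In the joint model, where 4 were called, the count was 1 with the replicate block, 2 with cells thinned to 1500 UMIs, 0 with the libraries of 1 genotype and number summed, and 0 to 7 without 1 library. For Th22 over Th17 in KO it was 1 with thinned cells, against 0. In cluster 0 in Th17 it was 1 with thinned cells and 0 to 1 without 1 library, against 0. Outside cluster 0 in Th17 it was 0 with the replicate block and 0 to 4 without 1 library, against 2. The share of all genes called under each of these alternatives is not given here. The number of all genes called also moved, as described below, so a larger count is not stronger evidence. The cause of these changes was not tested.

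Replicate numbers are not said to pair libraries. Deviations of same-numbered libraries correlated at 0.88 between KO Th17 and KO Th22 and at 0.64 between WT Th17 and WT Th22, but at -0.56 to -0.46 between KO and WT. Calls over all genes also varied among the alternatives. They reached 665 in Th17, 488 in Th22, 1936 in the joint model and 432 for Th22 over Th17 in KO. The main fits called 25, 20, 393 and 16. The share of all genes called under each pairing below is not given, so larger counts there are not stronger evidence. The numbers were crossed between KO and WT, a pairing added after seeing the data. Counts among the described genes were 5 in Th17, 3 in Th22, 7 in the joint model and 3 for Th22 over Th17 in KO. Without both KO libraries numbered 1, also added after seeing the data, they were 5 in Th17, 2 in Th22 and 8 in the joint model, and without both numbered 2 they were 3 in Th17.

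Of 1074 alternative values for single genes, 949 kept their direction and side of the threshold, 58 lost the call, 48 gained one and 19 changed sign. Over the leave-one-out fits, those without both KO libraries of a number included, Ccr7 in Th17 ranged from -0.22 to 0.019, Txnip in Th22 from -0.35 to 0.0041, Pik3ip1 in Th22 from -0.53 to 0.32, Ccr7 in the joint model from -0.059 to 0.098, Pik3ip1 in the joint model from -0.75 to 0.11, Ccr7 in cluster 0 in Th17 from -0.12 to 0.074, Pik3ip1 in cluster 0 in Th22 from -0.44 to 0.18, and Pik3ip1 outside cluster 0 in Th22 from -0.58 to 0.25. Ccr7 in the joint model was -0.035 with thinned cells and -0.00097 without clusters 3 and 10. The comparisons within single clusters were not repeated under the alternatives. Alternatives of the joint model inside and outside cluster 0 are not reported here, so how far those calls hold is not shown. Depth limits the rarer transcripts, since most thinned cells had no UMI of any given one of Klf2, S1pr1 or Txnip.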

Other observations

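The remaining lists of other cell types and of handling were also read in the KO and WT comparisons. Of 13 dissociation and heat stress genes, 0 were called in Th17, in Th22 or in the joint model (edgeR), and their summed level was 2393 to 3385 CPM in KO libraries and 2625 to 2808 CPM in WT libraries. Of 4 tested myeloid markers, 0 were called, the sums being 22.2 to 34.2 CPM in KO libraries and 21.0 to 27.6 CPM in WT libraries, with Csf1r, Cd14, Itgam and Tyrobp under 1 CPM on average. Both CD8 T cell markers were tested and neither was called, with sums of 11.4 to 13.5 CPM in KO libraries and 9.99 to 11.7 CPM in WT libraries. Of 7 tested NK and gamma-delta markers, 0 were called. Foxp3, the defining factor of regulatory T cells, was under 1 CPM on average. The part of these cell types in the values of the 9 genes was not tested beyond the fits without clusters 7, 9 and 11.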
